A study of Mus musculus with 9 samples.

Results

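Wnt10a, Lef1 and 8 other genes of the Wnt signalling pathway were followed over 3 subsets of mouse splenic B cells. The 10 genes, Wnt10a, Lrp6, Ryk, Ctnnb1, Apc, Axin1, Axin2, Gsk3b, Lef1 and Tcf7, were taken by symbol from a table of 24459 gene rows, in which each occurs once. They were chosen by the FPKM values of these same libraries, since the high Wnt10a and Lef1 levels of BDL cells were known when the list was drawn up. Their differences between subsets are therefore given as descriptions, with a standard error and without a p-value.

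Wnt proteins are secreted lipid-modified ligands that bind Frizzled receptors together with the coreceptors LRP5 and LRP6. Without a ligand, a destruction complex built on Axin and APC lets the kinase GSK3 mark β-catenin for degradation, and with a ligand β-catenin accumulates and binds the LEF/TCF transcription factors on DNA. In lymphocytes this pathway is known from immature stages: Lef1 acts in B cell precursors and Tcf7, which encodes TCF1, in thymocytes and T cells.

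RNA was sequenced from follicular B cells with high IgD (FO), follicular B cells with low IgD (BDL) and marginal zone B cells (MZ), with 3 libraries of each, from naive mice aged 8 to 10 weeks. FO and BDL cells shared the gate B220+ IgM int CD21 int CD23+ CD93-, whereas MZ cells were gated as B220+ IgM hi CD21 hi CD23- CD93-. The study names B10.PL mice for these libraries and the labels C57/BL6, and per the series' design text cells of 5 mice were pooled for each sort. No gene was altered and no treatment given in any group. Each subset has 1 library for each of the same 3 date codes, which number the replicates below. A bulk library measures the mean over sorted cells, so fewer cells of a type and less RNA per cell cannot be told apart.

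Values are FPKM, in which the fragments of a gene are divided by its transcript length and by the library's mapped fragments, so that levels can be compared between genes per length. No counts were used here, and depth was inferred from the spacing of the smallest FPKM values. On this spacing 67.1 to 75.0% of the small values came to within 0.1 of whole fragments, and 20% would do so at random for a spacing set beforehand. The spacing of each library was chosen to fit these same values, so the 20% is no test of it. The inferred relative depth of the libraries spanned 0.907 to 1.222 with FO replicate 1 as 1, and 1 fragment per kilobase was worth 0.0138 to 0.0186 FPKM. All 7 B cell markers were tested by limma (described below) and none was called between subsets, with 0, 2 and 3 at an unadjusted p under 0.05 for BDL against FO, BDL against MZ and FO against MZ. Of 7 markers of follicular and marginal zone cells, 6 were called lower and 1 higher in BDL than in MZ cells, with the same counts for FO cells. Between BDL and FO cells, Myof and Cd9 of this list, both marginal zone markers, were called higher in BDL (log2 differences 1.29 and 1.84, limma adjusted p = 0.000944 and 0.000136), and their part in the differences below was not tested. Fcer2a, which encodes CD23, measured 448 to 538 FPKM in FO and 389 to 476 FPKM in BDL libraries, and 26.1 to 34.5 FPKM in MZ libraries. Cd93, whose protein was used in the gates, measured 10.2, 11.5 and 15.9 FPKM in BDL libraries, beside 3.10, 3.32 and 5.29 FPKM in FO and 1.12 to 1.74 FPKM in MZ libraries.

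Lef1 has several RefSeq start sites, and the gene level FPKM adds up their transcripts, so a start used in these cells could not be read from the data. The 250 bases before the first and before the most downstream start are shown because the Lef1 difference is the largest in FPKM among the LEF/TCF genes and these starts differ in base composition. Both are on the plus strand of GRCm38.p6, and CG dinucleotides are in capitals.
Lef1, first start, chr3:131110047-131110296: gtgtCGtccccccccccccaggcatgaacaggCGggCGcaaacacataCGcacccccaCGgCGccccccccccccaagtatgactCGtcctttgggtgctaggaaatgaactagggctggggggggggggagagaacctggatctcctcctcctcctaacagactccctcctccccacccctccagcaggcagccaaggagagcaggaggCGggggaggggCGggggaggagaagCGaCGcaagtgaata
Lef1, start 45997 bases downstream, chr3:131156044-131156293: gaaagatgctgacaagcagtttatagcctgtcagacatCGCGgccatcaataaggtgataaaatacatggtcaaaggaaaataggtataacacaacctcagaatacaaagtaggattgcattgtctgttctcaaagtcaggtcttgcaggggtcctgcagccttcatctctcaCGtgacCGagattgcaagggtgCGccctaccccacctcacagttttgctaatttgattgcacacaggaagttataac

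The first window held 11 CG dinucleotides at 66.4% GC, and the downstream window 5 at 44.8% GC. RefSeq promoter windows, from 250 bases before to 50 after a start, were given for 6 of the 10 genes, in 11 windows. None of the 11 windows held the TCF/LEF core motifs CTTTGAT or CTTTGTT on either strand, which 9.33% of all 32851 promoter windows of the same length held. A missing match says only that these letters are not in these windows.

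Wnt10a encodes a Wnt ligand best known from skin, hair follicles and teeth. It lies on chr1:74838090-74850753, plus strand (NCBIM37, the build also called mm9; GENCODE ENSMUSG00000026167.8), and was high in BDL cells alone. BDL libraries measured 2.69, 2.53 and 1.79 FPKM, FO libraries 0.244, 0.154 and 0.188 FPKM, and MZ libraries 0.127, 0.0597 and 0.142 FPKM. Each BDL library lay above every FO and MZ library, and each FO library above every MZ library.

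The mean Wnt10a level was 2.33 ± 0.479 FPKM in BDL (SD, n = 3), 0.195 ± 0.0451 FPKM in FO and 0.110 ± 0.0440 FPKM in MZ cells. The difference in log2(FPKM + 0.1) was 3.04 (SE 0.27) for BDL minus FO and 3.54 (SE 0.27) for BDL minus MZ, where the ratios of the mean FPKM were 11.96 and 21.29. FO minus MZ was 0.51 (SE 0.27), a ratio of 1.78, at levels of about 22.7 to 35.7 fragments per library in FO and 7.95 to 22.6 in MZ, so the lower levels rest on few fragments. Because the constant 0.1 is close to the FO and MZ levels, the log2 differences understate the ratios. Wnt10a reached the minimum of 0.5 FPKM over the 9 libraries only through its BDL level. Wnt6, its neighbour on chromosome 1 and also a Wnt gene, was at most 0.0181 FPKM in any library.

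**Figure D1:**
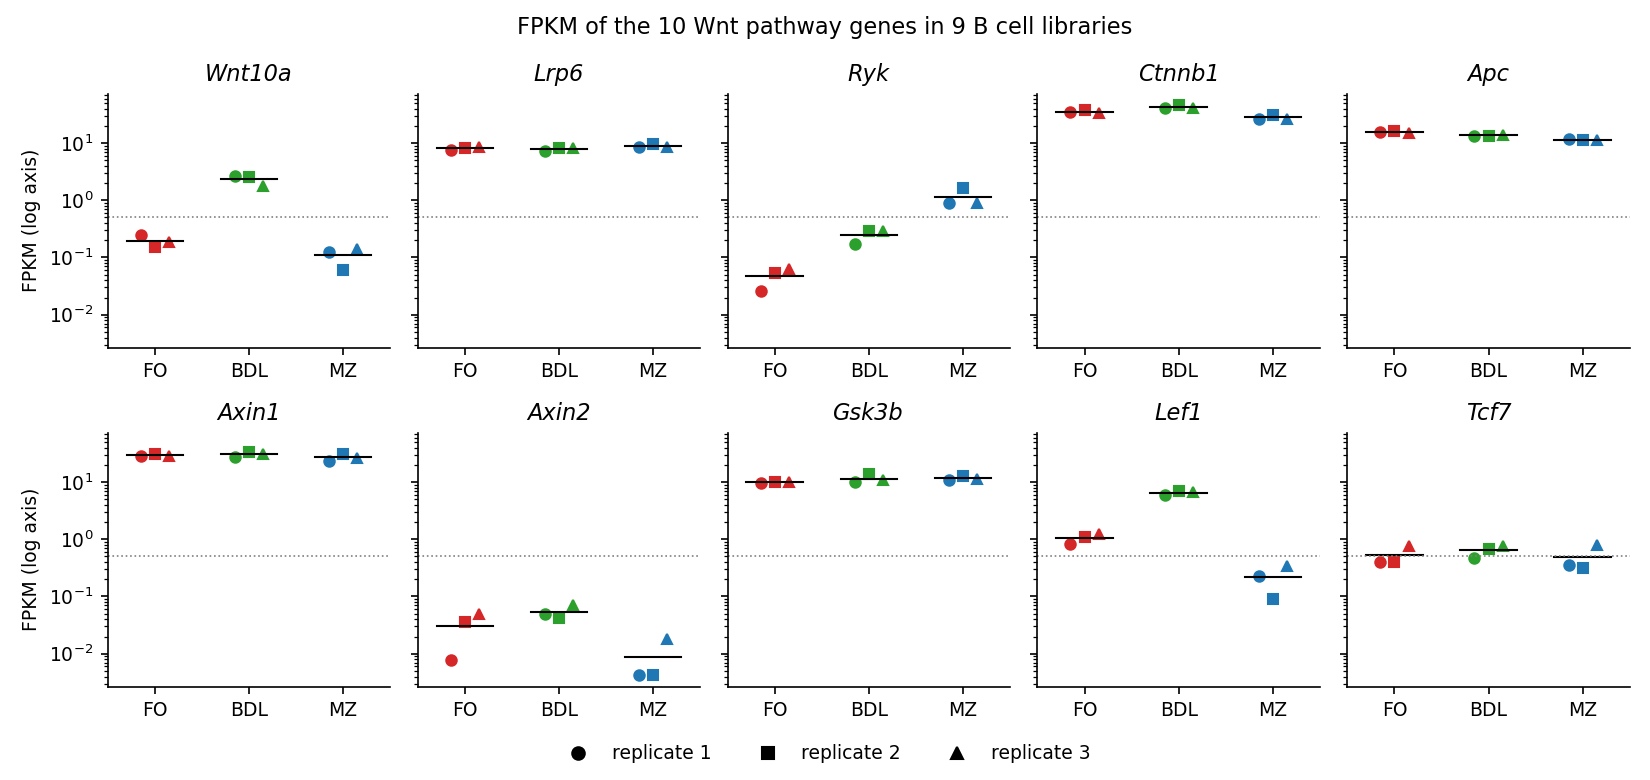
FPKM (log axis) of the 10 Wnt pathway genes in each of the 9 libraries, by subset (FO red, BDL green, MZ blue). Symbols are replicates, black lines are subset means and the dotted line is the 0.5 FPKM minimum. Wnt10a (BDL mean 2.33 FPKM) and Lef1 (6.55 FPKM) stand highest in BDL, Ryk stands highest in MZ (1.14 FPKM), and Lrp6, Ctnnb1, Apc, Axin1 and Gsk3b lie within a narrow range over all libraries.

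The coreceptor gene Lrp6 (chr6:134396494-134516983, minus strand) was expressed at similar levels in every subset. Lrp6 measured 7.67, 8.33 and 8.57 FPKM in FO, 7.32, 8.16 and 8.31 FPKM in BDL, and 8.57, 9.65 and 8.63 FPKM in MZ libraries. FO and BDL libraries overlapped, with a log2 difference of -0.05 (SE 0.09). MZ libraries were at or above the highest FO and BDL libraries, by a margin smaller than the spread within FO.

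Ryk encodes a Wnt receptor with an inactive kinase domain that is distinct from the Frizzled family. It lies on chr9:102737250-102810637, plus strand, and was the gene of the 10 that was highest in MZ cells by the widest margin. MZ libraries measured 0.904, 1.64 and 0.880 FPKM, BDL libraries 0.171, 0.290 and 0.290 FPKM, and FO libraries 0.0259, 0.0544 and 0.0618 FPKM. No subset overlapped another, in the order MZ, BDL, FO.

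The ratio of mean Ryk FPKM was 4.57 for MZ over BDL, 24.1 for MZ over FO and 5.28 for BDL over FO. In log2(FPKM + 0.1), BDL minus FO was 1.24, BDL minus MZ -1.79 and FO minus MZ -3.03, each with an SE of 0.26. The FO levels stand for about 5.03, 10.6 and 11.6 fragments. With a mean of 0.480 FPKM over the 9 libraries, Ryk lay just under the minimum for testing, and its values come from a fit without that minimum. Tcf7, at 0.551 FPKM, lay just over it.

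Ctnnb1 encodes β-catenin, the coactivator on which the ligand signal converges, and had the highest level of the 10 genes. FO libraries measured 35.3, 37.5 and 33.4 FPKM, BDL libraries 41.6, 46.1 and 40.8 FPKM, and MZ libraries 26.0, 31.4 and 26.7 FPKM. Every BDL library was above every FO library, and every FO library above every MZ library. The steps were small beside those of Wnt10a and Lef1, with log2 differences of 0.27 for BDL minus FO, 0.61 for BDL minus MZ and 0.34 for FO minus MZ, each with an SE of 0.10. Ctnnb1 lies on chr9:120838334-120869625, plus strand, and overlaps Ulk4 on the other strand. The sources used here differ on whether the libraries kept strand, but Ulk4 was at most 0.0988 FPKM.

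Within the destruction complex the scaffold gene Apc (chr18:34380578-34481843, plus strand) differed in the tightest steps. Its level was 15.5, 16.3 and 15.1 FPKM in FO, 13.4, 13.4 and 14.0 FPKM in BDL, and 11.7, 11.3 and 11.1 FPKM in MZ libraries. Thus Apc was highest in FO cells, unlike Ctnnb1, and none of the subsets overlapped. BDL minus FO was -0.20, BDL minus MZ 0.25 and FO minus MZ 0.46, each with an SE of 0.06.

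Axin1, the limiting scaffold of the complex (chr17:26275631-26332756, plus strand), was close to Ctnnb1 in level and overlapped in every comparison. It measured 28.8, 30.5 and 28.9 FPKM in FO, 27.7, 33.0 and 30.5 FPKM in BDL, and 23.8, 31.5 and 25.8 FPKM in MZ libraries. Its log2 differences were 0.05, 0.18 and 0.13 for BDL minus FO, BDL minus MZ and FO minus MZ, each with an SE of 0.12.

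Gsk3b, the kinase of the complex (chr16:38089087-38246170, plus strand), measured 9.67, 10.1 and 9.94 FPKM in FO, 10.2, 13.7 and 10.7 FPKM in BDL, and 11.03, 12.83 and 11.16 FPKM in MZ libraries. All FO libraries lay below the BDL and MZ libraries, which overlapped. BDL minus FO was 0.20, FO minus MZ -0.23 and BDL minus MZ -0.03, each with an SE of 0.12, and BDL replicate 2 accounts for most of the BDL spread.

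Axin2 is both a scaffold of the complex and a target gene that β-catenin and LEF/TCF factors induce in many tissues. It was near 0 in all subsets (chr11:108781663-108812097, plus strand). FO libraries measured 0.00782, 0.0354 and 0.0488 FPKM, BDL libraries 0.0498, 0.0417 and 0.0706 FPKM, and MZ libraries 0.00423, 0.00432 and 0.0182 FPKM. BDL libraries lay above all MZ libraries and overlapped FO libraries. The highest value stands for about 18.8 fragments and the lowest for about 0.99, so no fold is given, and Axin2 did not reach the minimum for testing.

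**Figure D2:**
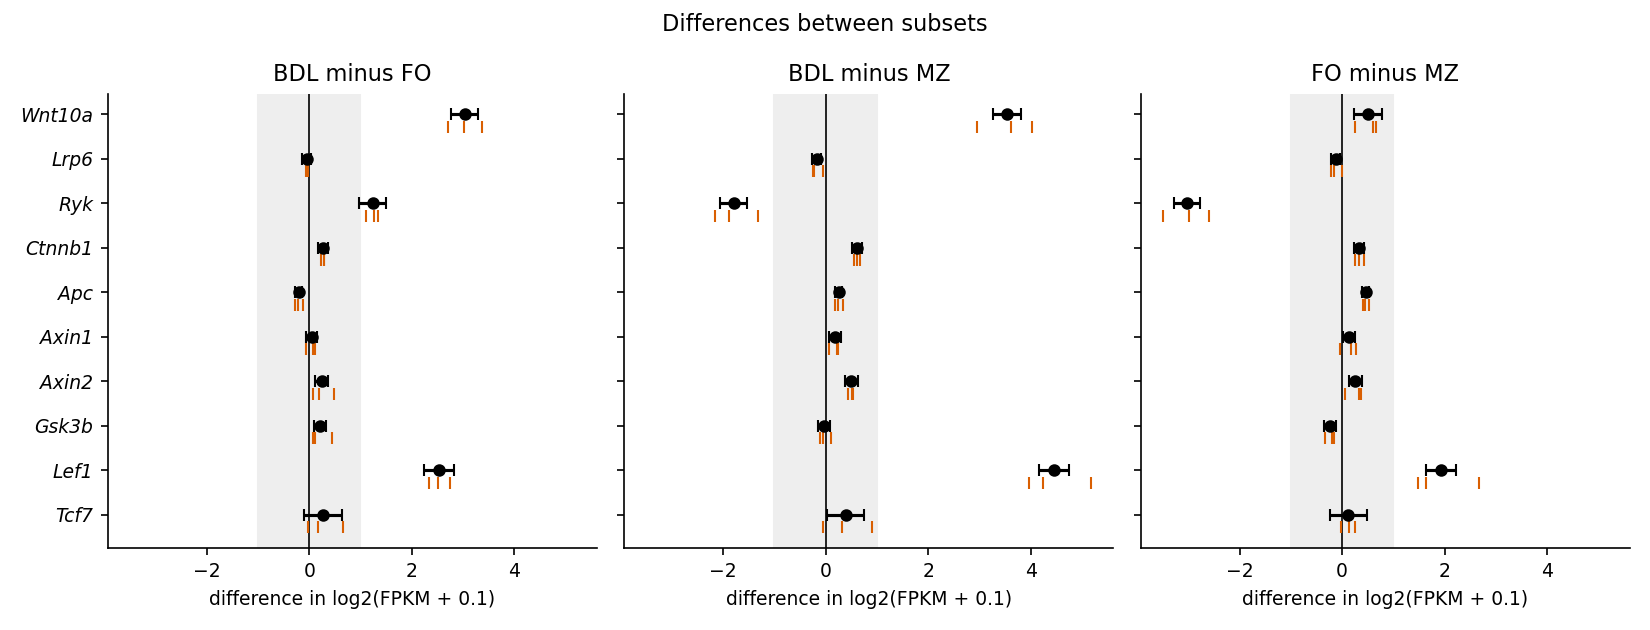
Differences in log2(FPKM + 0.1) of the 10 genes for BDL minus FO, BDL minus MZ and FO minus MZ. Black points with bars are limma estimates ± SE, orange ticks are the differences of the 3 libraries with the same replicate number, and the grey band spans -1 to 1. Wnt10a (3.04 and 3.54) and Lef1 (2.53 and 4.47) lie to the right of the band in both BDL comparisons, and Ryk lies to the left of it in both MZ comparisons (-1.79 and -3.03).

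Lef1 encodes a transcription factor that bends DNA and recruits β-catenin. It lies on chr3:130813389-130927274, plus strand, with 6 annotated transcripts, and differed between all 3 subsets. BDL libraries measured 6.04, 6.85 and 6.76 FPKM, FO libraries 0.814, 1.12 and 1.26 FPKM, and MZ libraries 0.226, 0.0915 and 0.336 FPKM. No subset overlapped another, and the order was BDL, FO, MZ.

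Mean Lef1 was 6.55 ± 0.443 FPKM in BDL (SD, n = 3), 1.06 ± 0.227 FPKM in FO and 0.218 ± 0.123 FPKM in MZ cells. The ratio of means was 6.17 for BDL over FO, 30.1 for BDL over MZ and 4.88 for FO over MZ. In log2(FPKM + 0.1) these differences were 2.53, 4.47 and 1.93, each with an SE of 0.29. The MZ libraries held about 45.3, 18.0 and 79.1 Lef1 fragments, and the BDL libraries 1224 to 1820.

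Tcf7, the other LEF/TCF gene with a level near 0.5 FPKM, showed no such order. FO libraries measured 0.400, 0.403 and 0.775 FPKM, BDL libraries 0.466, 0.689 and 0.760 FPKM, and MZ libraries 0.357, 0.320 and 0.787 FPKM. All 3 subsets overlapped, and replicate 3 was the highest in each. The log2 differences were 0.27 for BDL minus FO, 0.39 for BDL minus MZ and 0.12 for FO minus MZ, with an SE of 0.37 each. Tcf7 lies on chr11:52065873-52096681, minus strand. There the annotation also places the lincRNA Gm16953 on the same strand and A630014C17Rik on the other, and their part in the Tcf7 values was not tested.

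Lef1 was the main LEF/TCF transcript of BDL cells. Of the summed FPKM of Lef1, Tcf7, Tcf7l1 and Tcf7l2, Lef1 made up 89.8, 89.0 and 86.7% in BDL libraries, 65.0, 70.8 and 59.96% in FO libraries, and 38.1, 21.6 and 29.3% in MZ libraries. The ratio of Lef1 to Tcf7 was 12.96, 9.94 and 8.89 in BDL, 2.03, 2.77 and 1.62 in FO, and 0.632, 0.286 and 0.427 in MZ libraries. The shares and ratios did not overlap between subsets, and since Tcf7 overlapped, they carry the Lef1 difference over. Tcf7l2 was low, at 0.195, 0.137 and 0.234 FPKM in BDL libraries, 0.0376, 0.0459 and 0.0651 FPKM in FO libraries and at most 0.0233 FPKM in MZ libraries.

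**Figure D3:**
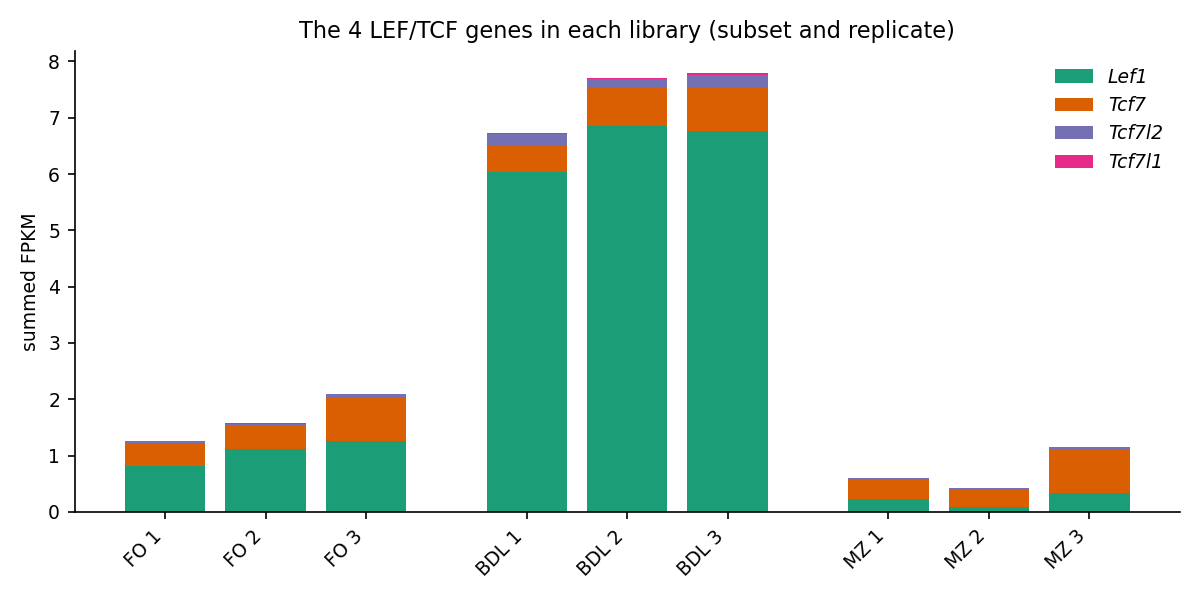
Summed FPKM (linear axis from 0) of the 4 LEF/TCF genes in each library, stacked by gene. Bars are single libraries, named by subset and replicate. The BDL bars are the tallest and Lef1 fills 86.7 to 89.8% of them, whereas in the MZ bars Lef1 fills 21.6 to 38.1%.

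A gene row was called where the subsets differed by 2-fold or more at a limma p, adjusted by Benjamini-Hochberg, under 0.05. Of the list, 8 of the 10 genes could be tested, of 11597 rows in all. For BDL against FO, 2 genes were called higher (Lef1 and Wnt10a), where 1.64% of all rows were, and 0 were called lower, where 0.267% were. For BDL against MZ, the same 2 were called higher (background 3.47%) and 0 lower (4.34%). For FO against MZ, Lef1 was called higher (3.39%) and none lower (5.54%). With 1 in place of 0.1 added before the log2, Lef1 was no longer called for FO against MZ, and Wnt10a was not tested with a minimum of 1 FPKM. Because these contrasts chose the genes, the counts are read no further.

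By overlap, 4 of the 8 tested genes were higher without overlap in BDL than in FO, where 24.4% of all rows were, and 1 was lower, where 10.3% were. For BDL against MZ, 4 were higher (22.6% of rows) and 1 lower (16.4%), and for FO against MZ, 4 were higher (22.5%) and 2 lower (23.6%). The median log2 difference of the 8 genes was 0.24, 0.32 and 0.23 in the 3 comparisons, against 0.05, 0.06 and 0.01 over all rows. The 3 comparisons share libraries and are not independent of each other.

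T cells express Lef1 and Tcf7, so the T cell markers are given beside them. Of 15 markers none was at 0 in all libraries, 4 were tested, and their summed level was 154 to 190 FPKM in FO, 180 to 233 FPKM in BDL and 103 to 116 FPKM in MZ libraries. Most of that sum was Cd2, which B cells also express, at 141 to 175 FPKM in FO, 154 to 211 FPKM in BDL and 85.1 to 96.5 FPKM in MZ libraries. Lck, a kinase of T cell receptor signalling, was called higher in BDL than in FO (log2 difference 1.15, limma adjusted p = 0.00730) and than in MZ cells (1.18, adjusted p = 0.00160), with no overlap in either. Zap70 was called lower in BDL and in FO than in MZ cells, by -2.25 (adjusted p = 4.05e-05) and -1.51 (adjusted p = 0.000294).

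The defining T cell genes were low, but not all below Tcf7, which spanned 0.320 to 0.787 FPKM over the 9 libraries. Cd8b1 spanned 0.590 to 1.14 FPKM and Cd3d 0.272 to 0.797 FPKM. Cd3e measured 0.142, 0.194 and 0.120 FPKM in FO, 0.137, 0.116 and 0.342 FPKM in BDL, and 0.111, 0.0284 and 0.406 FPKM in MZ libraries. Without Cd2, Lck and Zap70, which were left out after their values were seen, the other 12 markers summed to 2.69, 2.65 and 4.36 FPKM in FO, 3.79, 3.02 and 5.02 FPKM in BDL, and 3.11, 2.31 and 4.81 FPKM in MZ libraries. These sums were highest in replicate 3 of each subset, as was Tcf7, and 6 of the 12 markers were each highest in replicate 3 of all 3 subsets. These 12-marker sums overlapped between subsets, while the sums of all 15 markers in BDL libraries lay above those in MZ libraries and overlapped those in FO libraries. The part of these transcripts in the Tcf7 and Lef1 values was not tested.

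**Figure D4:**
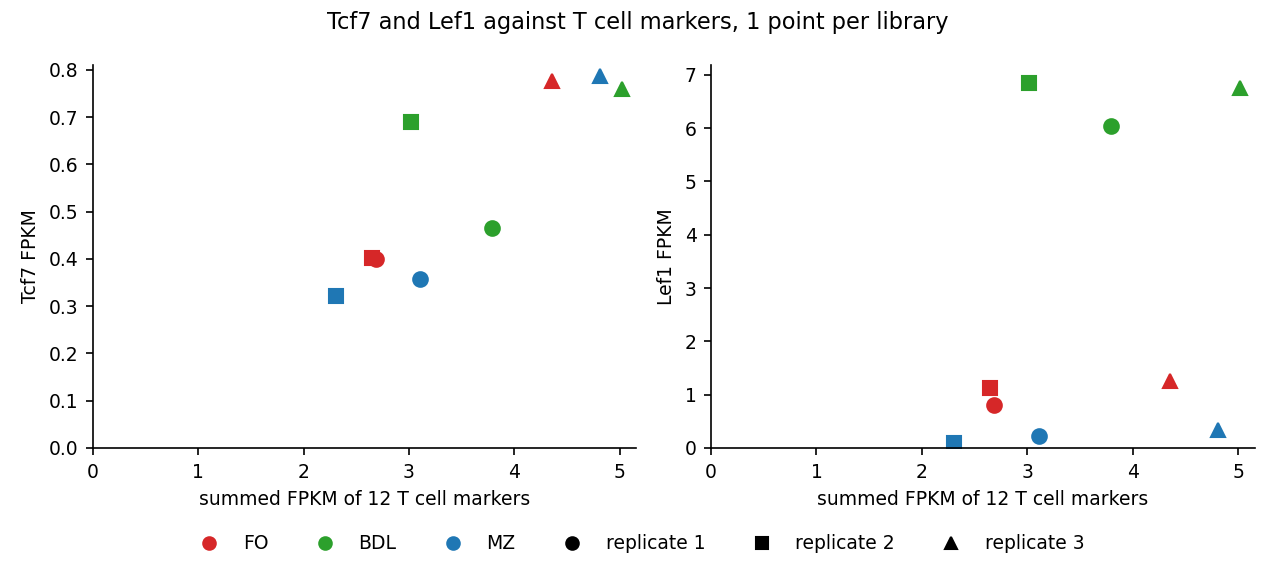
Tcf7 (left) and Lef1 (right) in FPKM against the summed FPKM of 12 T cell markers, with 1 point per library, on linear axes from 0. Colours are subsets and symbols replicates. Replicate 3 of each subset lies farthest right and, for Tcf7, at the top (0.760 to 0.787 FPKM), while Lef1 is 6.04 to 6.85 FPKM in the BDL libraries and at most 1.26 FPKM in the others.

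Lef1 is also known from B cell precursors, and the 11 transitional and precursor markers are therefore given too. Igll1 was at 0 in all libraries, and Rag1 and Rag2, which recombine the antigen receptor genes, were at most 0.0201 FPKM. Of the 5 tested, Cd93, Myb and Sox4 were called higher in BDL than in FO cells, and the same genes and Vpreb3 were called higher in BDL than in MZ cells. Cd93, Vpreb3 and Sox4 were also called higher in FO than in MZ cells. Vpreb3 was not called between BDL and FO cells (0.28, limma adjusted p = 0.264). Myb measured 16.9, 6.99 and 20.7 FPKM in BDL libraries against 1.16, 1.23 and 1.31 FPKM in FO libraries (log2 difference 3.35, limma adjusted p = 0.00549). The summed level of the list was 478 to 710 FPKM in BDL, 307 to 369 FPKM in FO and 364 to 465 FPKM in MZ libraries, most of it Cd24a, and its part in the Lef1 and Wnt10a values was not tested.

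Of the other lists, the 1 stromal marker tested, Pecam1, which B cells also express, gave no call, since its differences from MZ cells (0.58 in BDL and 0.59 in FO, limma adjusted p = 0.00373 and 0.00326) were under the fold change minimum, and the collagen genes were at most 0.00749 FPKM. Sdc1, a plasma cell marker, was called higher in BDL than in FO cells, at 8.467 and 1.499 FPKM on average, while Prdm1 was not (0.930 and 0.527 FPKM). Of 3 germinal centre genes tested, Rgs13 was called higher in BDL cells than in both others, and reached the minimum only through its BDL level. Bcl6, at 26.4 FPKM in BDL, 32.5 FPKM in FO and 7.61 FPKM in MZ cells on average, was lower in BDL than in FO libraries without overlap. That difference was not called, while Bcl6 was called higher in BDL than in MZ cells. Fas was not called in any comparison. Myeloid markers summed to at most 12.5 FPKM, NK cell markers to at most 11.8 FPKM and erythroid markers to at most 8.04 FPKM in any library, with 1 gene called higher in BDL than in FO cells among the myeloid (Emr1) and among the erythroid markers (Hbb-b1). Their part in the Wnt values was not tested either.

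The rest of the pathway was read from a wider list of 119 genes, all present in the table, of which 50 reached the minimum. For BDL against FO, 1 of the 50 was called higher by limma (1.64% of all rows were) and 0 lower (0.267%), where 2 were lower at an unadjusted p under 0.05. For BDL against MZ, 5 were called higher (3.47% of all rows) and 3 lower (4.34%), and for FO against MZ, 2 higher (3.39%) and 4 lower (5.54%). Apart from the 5 called higher for BDL against MZ, which are above that share, these counts are close to what the shares would give for 50 genes. The list was drawn up with earlier results known, and nothing is read from the counts about it. The medians of the list, 0.04, 0.22 and 0.15 in log2, stood beside 0.05, 0.06 and 0.01 over all rows. With 1 added before the log2, the BDL against MZ calls of Csnk1e, Frat1, Lgr5 and Rnf43 and the FO against MZ calls of Rnf43, Znrf3 and Sox4, all given below, were lost. At an adjusted p alone, without the fold change minimum, limma gave 8 higher and 0 lower for BDL against FO, where 6.04% and 1.68% of all rows passed. It gave 17 higher and 6 lower for BDL against MZ (16.5% and 11.6% of rows), and 16 higher and 6 lower for FO against MZ (12.8% and 14.3%). Of these counts without the fold change minimum, those of higher genes were above the shares of all rows in each comparison. The counts of lower genes were near or below them. The p-values measure the spread between 3 pooled sorts of each subset, and an exact permutation test of a single gene with 3 against 3 libraries cannot go below p = 0.1.

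Most ligand and receptor genes were below the minimum. Of the 18 other Wnt ligand genes, 6 were at 0 in all libraries and only Wnt4 was tested, at 1.19 FPKM in FO, 0.997 FPKM in BDL and 1.18 FPKM in MZ cells on average, overlapping in all comparisons. Of 14 receptor genes, only Fzd5, a Frizzled receptor, was tested, at 1.48, 1.49 and 1.27 FPKM, again with overlap throughout. Wls, which carries Wnt proteins to the cell surface, measured 7.02, 6.04 and 6.84 FPKM in FO and 10.5, 11.1 and 9.72 FPKM in BDL libraries, a log2 difference of 0.64 (SE 0.10, limma adjusted p = 0.00721), below the fold change minimum. Kremen1, a receptor of Dkk inhibitors, behaved alike at 9.79 and 16.04 FPKM on average (0.71, SE 0.08, adjusted p = 0.00180). Of the genes listed with Wls for Wnt secretion, Porcn was at 0 in all libraries and Notum was at most 0.0378 FPKM.

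Below the minimum for testing, 3 genes were singled out after their values were seen. Wnt10b, the closest relative of Wnt10a, measured 0.632, 0.669 and 0.573 FPKM in BDL, 0.188, 0.126 and 0.253 FPKM in FO, and 0.263, 0.199 and 0.262 FPKM in MZ libraries. Tnfrsf19 measured 0.751, 1.15 and 0.629 FPKM in BDL, 0.132, 0.171 and 0.168 FPKM in FO, and 0.215, 0.260 and 0.227 FPKM in MZ libraries. In both, as in Tcf7l2 above, every BDL library lay above every other library. Without overlap, 26 of the 119 genes of the wider list were higher and 11 lower in BDL than in FO libraries. Against MZ libraries, 27 were higher and 9 lower in BDL. Of all tested rows, 24.4% were higher and 10.3% lower against FO, and 22.6% and 16.4% against MZ libraries. The log2 differences of Wnt10b and Tnfrsf19 were 1.35 and 1.84 for BDL minus FO, and 1.09 and 1.46 for BDL minus MZ. For Tcf7l2 they were 0.94 for BDL minus FO and 1.34 for BDL minus MZ. Because these values chose the genes, no p-value is given for them.

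Sox4, an HMG box factor that can bind β-catenin, was the 1 gene called between BDL and FO cells. BDL libraries measured 4.09, 7.11 and 4.46 FPKM, FO libraries 0.923, 1.23 and 0.893 FPKM, and MZ libraries 0.318, 0.318 and 0.364 FPKM. Sox4 thus had the same order of subsets as Lef1, without overlap. Its log2 difference was 2.22 for BDL minus FO (SE 0.22, limma adjusted p = 0.00127), 3.58 for BDL minus MZ (adjusted p = 1.64e-05) and 1.35 for FO minus MZ (adjusted p = 0.00244). Sox4 is also on the list of transitional markers.

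Among the other nuclear partners, Tle1, a Groucho corepressor that binds LEF/TCF factors in the absence of β-catenin, separated MZ cells from both follicular subsets. Tle1 measured 3.11, 3.42 and 3.33 FPKM in FO, 2.99, 3.25 and 2.73 FPKM in BDL, and 0.792, 0.918 and 0.829 FPKM in MZ libraries. It was higher in BDL than in MZ cells by 1.71 (SE 0.10, limma adjusted p = 1.59e-05) and in FO than in MZ cells by 1.84 (adjusted p = 8.45e-06), while FO and BDL overlapped.

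Of the kinases and their partners, Csnk1e and Frat1 were called higher in BDL than in MZ cells. Csnk1e, a casein kinase that phosphorylates Dishevelled, measured 9.62, 9.55 and 10.2 FPKM in BDL, 6.35, 6.63 and 7.18 FPKM in FO, and 4.490, 4.598 and 4.991 FPKM in MZ libraries. Its log2 difference was 1.04 for BDL minus MZ (SE 0.08, limma adjusted p = 3.89e-05), close to the fold change minimum, and 0.54 for BDL minus FO (adjusted p = 0.00612). Frat1, which binds GSK3, measured 6.70, 10.3 and 7.71 FPKM in BDL, 5.85, 7.44 and 8.44 FPKM in FO, and 3.26, 3.75 and 3.98 FPKM in MZ libraries. Its log2 difference was 1.13 for BDL minus MZ (SE 0.19, limma adjusted p = 0.00269). BDL and FO libraries overlapped (0.18, adjusted p = 0.579). FO minus MZ was 0.95 (adjusted p = 0.00586), just under the fold change minimum. Without BDL replicate 2, Frat1 was no longer called. None of the 10 other destruction complex genes tested was called by limma in any comparison. At an unadjusted p under 0.05, 2, 5 and 3 of them were higher for BDL against FO, BDL against MZ and FO against MZ. At an adjusted p under 0.05, 1, 4 and 3 were higher, with differences under the fold change minimum.

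The R-spondin axis and the target genes held calls in both directions. Lgr5, an R-spondin receptor and a Wnt target in stem cells, measured 0.752, 0.714 and 0.972 FPKM in BDL libraries. FO libraries measured 0.599, 0.513 and 0.522 FPKM, and MZ libraries 0.368, 0.290 and 0.390 FPKM. The log2 difference for BDL minus MZ was 1.02 (SE 0.20, limma adjusted p = 0.00627). BDL minus FO (0.49, adjusted p = 0.172) and FO minus MZ (0.52, adjusted p = 0.0879) were not called, though without overlap. Lgr5 lost its call without BDL replicate 3 or without MZ replicate 2. Lgr5 averaged 0.569 FPKM over the 9 libraries and reached the minimum for testing only through its BDL level. Rnf43 and Znrf3 encode ubiquitin ligases that remove Frizzled receptors, and both were highest in MZ cells.

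Rnf43 measured 1.70, 2.23 and 2.04 FPKM in MZ libraries against 0.549, 0.412 and 0.671 FPKM in BDL and 0.610, 0.812 and 0.815 FPKM in FO libraries, lower by -1.71 (SE 0.20, limma adjusted p = 0.000472) and -1.31 (adjusted p = 0.00182). Znrf3 stepped from 0.428 FPKM in FO to 0.807 FPKM in BDL and 1.59 FPKM in MZ cells on average, with no overlap. It was called between FO and MZ cells (-1.67, SE 0.13, adjusted p = 4.24e-05), while BDL minus FO (0.78, adjusted p = 0.0114) and BDL minus MZ (-0.89, adjusted p = 0.00156) stayed under the fold change minimum.

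Myc and Jun, growth-associated transcription factors that many signals besides Wnt induce, were lower in both follicular subsets than in MZ cells. Myc measured 109, 102 and 106 FPKM in BDL, 121, 116 and 141 FPKM in FO, and 380, 519 and 390 FPKM in MZ libraries, with log2 differences of -2.01 for BDL (SE 0.14, limma adjusted p = 2.67e-05) and -1.76 for FO (adjusted p = 4.15e-05). Jun measured 64.2, 83.5 and 42.7 FPKM in BDL, 86.9, 97.0 and 72.6 FPKM in FO, and 159, 270 and 162 FPKM in MZ libraries. Its differences were -1.64 for BDL (SE 0.28, adjusted p = 0.00363) and -1.17 for FO (adjusted p = 0.0172). The FO call of Jun was lost without FO replicate 1, FO replicate 3 or MZ replicate 2, with an adjusted p of up to 0.0597.

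Myc and Jun had also the highest mean levels of the wider list, at 220 and 115 FPKM over the 9 libraries. Aes, a short Groucho relative, followed at 112 FPKM, Ppp2ca, a phosphatase subunit of the complex, at 72.7 FPKM, and Csnk1a1, the kinase that primes β-catenin, at 67.1 FPKM. The last 3 were not called in any comparison. Aes for FO minus MZ (0.50, limma adjusted p = 0.0293) and Ppp2ca for BDL minus MZ (0.52, adjusted p = 0.0373) stayed under the fold change minimum.

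**Figure D5:**
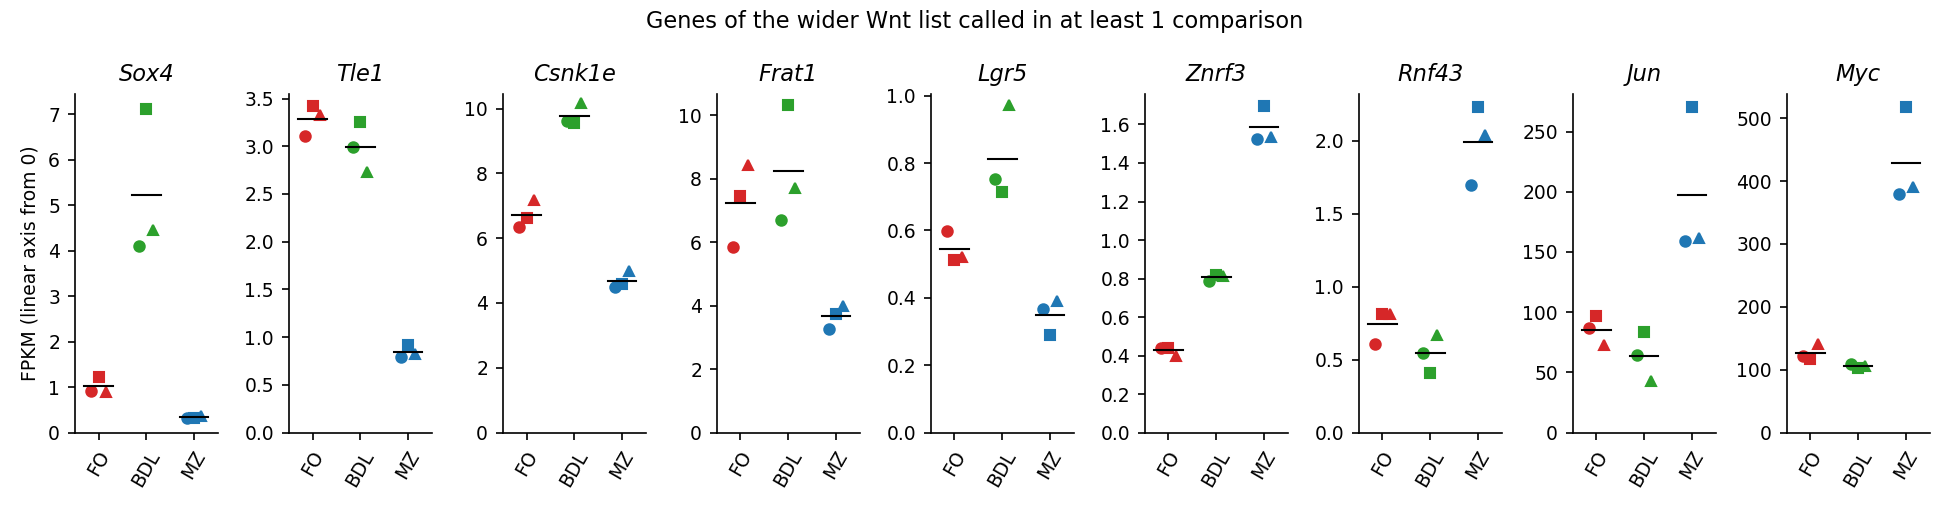
FPKM (linear axes from 0, 1 scale per gene) of the 9 genes of the wider Wnt list called in at least 1 comparison, in each library. Colours are subsets, symbols replicates and black lines means. Sox4 is highest in BDL (4.09 to 7.11 FPKM), Tle1 lowest in MZ, and Znrf3, Rnf43, Jun and Myc are highest in MZ libraries (Myc 380 to 519 FPKM).

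The rows most like Wnt10a over the 9 libraries in log2(FPKM + 0.1), among 11457 tested rows with a symbol that occurs once, were Nrgn (Pearson r 0.996), Ly6c2 (0.988), Slamf9 (0.987), Rgs13 (0.982) and Egfl6 (0.982). Nrgn, a calmodulin-binding protein known from neurons, measured 9.42, 9.41 and 8.38 FPKM in BDL, 1.70, 1.20 and 1.44 FPKM in FO, and 0.976, 0.819 and 1.001 FPKM in MZ libraries. Rgs13, a regulator of G protein signalling in B cells, measured 3.42, 6.37 and 4.12 FPKM in BDL libraries and at most 0.268 FPKM in the others. All 5 were highest in BDL cells, which a choice by likeness to Wnt10a selects for. Rgs13 and Egfl6 reached the minimum for testing only through their BDL levels.

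Most like Lef1 were Etv5 (r 0.993), Pogk (0.993), Palm (0.992), Hcrtr2 (0.989) and Csnk1e (0.989). Etv5, an ETS transcription factor, measured 4.69, 5.25 and 4.93 FPKM in BDL, 1.45, 1.57 and 1.75 FPKM in FO, and 0.602, 0.585 and 0.708 FPKM in MZ libraries. Hcrtr2, an orexin receptor gene, averaged 1.26, 0.340 and 0.0361 FPKM in BDL, FO and MZ cells, and reached the minimum only through its BDL level. All 5 had the order BDL, FO, MZ, which a choice by likeness to Lef1 selects for. The 9 points fall into the 3 subsets, so these correlations mostly restate the subset means and are given as a description.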

How the data were processed

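RNA from 9 libraries, 3 each of FO, BDL and MZ B cells, was analysed from 1 deposited table. According to the study's methods and the labels, the authors aligned reads to mm9 with TopHat 2.1.0, restricted to annotated junctions and without coverage search, and computed FPKM with Cufflinks. The Cufflinks version and the annotation are not given in the sources used here. The methods name a stranded kit, whereas the labels call the libraries single end and not strand specific. The deposited FPKM values are per library, with no comparison columns, and 0 columns could not be matched to a sample.

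The groups came from the sample titles. Members and lists (the wider Wnt list and the B cell, FO and MZ, T cell, transitional, plasma cell, germinal centre, myeloid, NK cell, stromal and erythroid markers) were chosen with earlier results of these data known. FPKM were taken as log2(FPKM + 0.1), rows averaging 0.5 FPKM or more were kept, and limma 3.58.1 (R 4.3.3) was fitted to all 9 libraries with subset as the only term and an eBayes trend. A row was called at a Benjamini-Hochberg adjusted p under 0.05 over all 11597 rows tested and a difference of 2-fold or more. The fit was tested on simulated data. Named were all 10 members, every called gene of the wider list, its 5 highest by mean FPKM, the 5 rows most like Wnt10a and Lef1 by correlation, and, of the marker lists, the highest genes and those at 0; other marker and wider-list genes were named after their values were seen.

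Gene positions are from GENCODE M1 on NCBIM37, and promoter windows from RefSeq on GRCm38.p6. The symbols matched for all 10 members. Depth was estimated from low FPKM values, and fragment numbers from it and the longest transcript are approximate and cover counting only. Alternatives were other constants, minimums, scalings, fits and call rules, and each library left out.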

Additional observations from a re-analysis of the deposited data

How the results depend on the processing

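The direction of every called difference of Wnt10a and Lef1 was the same under all alternatives run. Of 481 alternative log2 differences of the 10 genes, 456 moved by less than the spread between replicates and 25 by more. None of the called ones changed sign. Many of the 456 could not move. A log2 difference is left as it was by another minimum, no trend, a replicate block or a fit to the compared libraries alone. Leaving out a library of the subset not compared does not change it either. Wnt10a for BDL minus FO, for example, stayed at 3.035 in all such settings run. The 456 therefore overstates how far these differences were tested. Wnt10a for BDL minus FO spanned 1.47 to 3.58 and for BDL minus MZ 1.58 to 4.41, and Lef1 1.88 to 2.66 and 2.64 to 5.02, lowest with a constant of 1. Uncalled differences of Tcf7, Axin1, Gsk3b and Lrp6 changed sign in some settings.

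With a minimum of 1 FPKM, which Wnt10a does not reach, 1 of the 10 genes was called for BDL against FO and 1 for BDL against MZ. For FO against MZ the count of 1 became 0 with a constant of 1, 2 without a minimum and 2 with the 6 compared libraries alone. At an adjusted p alone it was 4 for BDL against MZ and 3 for FO against MZ. Leaving out each library in turn gave 2 to 2, 2 to 3 and 1 to 2 for the 3 comparisons, since Ryk reached the minimum without any single FO or BDL library.

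In the wider list, BDL against FO had 3 calls without a minimum and 8 at an adjusted p alone. BDL against MZ had 4 with a constant of 1 and 23 at an adjusted p alone, and FO against MZ 3 and 22. Leaving out libraries gave 1 to 1, 7 to 8 and 5 to 7 calls. With a constant of 1, the calls of Csnk1e, Frat1, Lgr5, Rnf43, Znrf3 and, for FO against MZ, Sox4 were lost, and with upper quartile scaling those of Csnk1e and Lgr5.

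Libraries of one replicate number share a date code, but their deviations correlated between -0.0623 and 0.244 and were not treated as paired. With a replicate block, 2, 2 and 1 of the 10 genes and 1, 8 and 7 of the wider list were called. The log2 ratio of mean FPKM was added after the data were seen. Low levels of Wnt10a, Ryk, Axin2 and Lef1 rest on few fragments.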
